A study of Mus musculus with 7 samples.

Results

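The genes described here are 10 transcriptional outputs of growth factor signaling through ERK, namely the phosphatases *Dusp6* and *Dusp4*, the Sprouty genes *Spry1*, *Spry2* and *Spry4*, the Sprouty-related genes *Spred1* and *Spred2*, and the ETS factors *Etv1*, *Etv4* and *Etv5*. They were found by symbol among the 33696 genes of the count matrix of BB-p53n OPCs, where each symbol had 1 row. BB-p53n OPCs are primary mouse oligodendrocyte progenitor cells from *Trp53* fl/fl C57BL/6 pups of either sex, taken at postnatal day 5 to 7 and selected with an antibody to CD140a, which is PDGFRα. A retrovirus with PDGFB-IRES-CRE was given to the cells to delete *Trp53* and overexpress PDGFB. The cells had been cultured, and their nuclei were measured by snRNA-seq with the 10x 3′ chemistry in 1 library, so that both classes of nuclei compared below come from the same transduced culture, with no untransduced control. Which nuclei carried the deletion or the retrovirus was not measured here. The other 6 samples of the study, 3 early and 3 late tumor-bearing brains, were not analysed here.

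Ligand binding to the receptor tyrosine kinases PDGFRα and EGFR activates RAS, RAF, MEK and ERK, and ERK in turn induces genes that restrain the same cascade. DUSP phosphatases remove the activating phosphates from ERK, Sprouty proteins act between the receptor and RAF, and SPRED proteins bring the RAS inactivator neurofibromin to the membrane. ETV1, ETV4 and ETV5 are the PEA3 group of ETS transcription factors, whose genes are repressed by Capicua until ERK relieves that repression. PDGF through PDGFRα is the main mitogen of OPCs, and EGFR is found in earlier glial progenitors and is often raised in glioma.

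Because both receptors signal through ERK, the question was whether the output genes differed between nuclei that held transcripts of one receptor and nuclei that held transcripts of the other. Of 10047 barcodes, 8917 had between 2000 and 8000 detected genes, the range the study states, and these hold 141138093 UMIs. A table of the study lists far fewer nuclei after its manual filtering than this range keeps here, and which nuclei those were is not given in the sources used here. Nuclei with at least 2 *Pdgfra* UMIs and 0 *Egfr* UMIs, called Pdgfra-only here, numbered 4701, or 52.7% of those kept. Nuclei with at least 2 *Egfr* UMIs and 0 *Pdgfra* UMIs, called Egfr-only, numbered 1125, or 12.6%. At least 2 UMIs of both receptors were found in 498 nuclei and no UMI of either in 738. These classes are sets of nuclei cut from counts of 1 library, not samples, and the receptor levels that set them (361 CPM of *Pdgfra* and 339 CPM of *Egfr*) are no result. A level is the UMIs of a gene summed over a class, divided by all UMIs of that class and multiplied by 1000000 (CPM). Ranges in brackets are 95% exact intervals for counting error only, and with no replicate library no test of a difference was made.

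The classes differed in more than the receptor. Median UMIs per nucleus were 15621 in Pdgfra-only and 11819 in Egfr-only nuclei, and mitochondrial genes took 6.41% and 6.35% of the UMIs. Nuclei with both receptors were deeper, at a median of 25469 UMIs, and nuclei with neither shallower, at 9379. Whether nuclei with both receptors were doublets, meaning several nuclei under the same barcode, was not tested. *Xist*, the transcript of the inactive X chromosome of female cells, was found in 3.96% of Pdgfra-only nuclei (3.42 to 4.55) and in 83.3% of Egfr-only nuclei (81.0 to 85.4), while Y-linked transcripts without *Xist* were found in 23.9% and 10.8%. Of nuclei with both receptors, 44.8% had *Xist* and 40.2% had Y-linked transcripts without it. Of nuclei with neither receptor, these shares were 35.4% and 33.5%. Neither *Xist* nor a Y-linked UMI was found in 3394 of the 4701 Pdgfra-only nuclei and in 66 of the 1125 Egfr-only nuclei. These transcripts therefore give no sex for most Pdgfra-only nuclei. The cells came from pups of either sex, and over the whole library the receptor class cannot be told apart from *Xist* or donor sex. Of 5 OPC markers, *Olig1* and *Olig2* were at 644 and 312 CPM in Pdgfra-only and at 522 and 218 CPM in Egfr-only nuclei, but *Sox10* was at 112 against 6.75 CPM and *Cspg4* at 76.8 against 16.2 CPM. The 5 oligodendrocyte markers summed to 213 and 29.6 CPM and the 5 neuronal markers to 1458 and 1025 CPM, of which *Rbfox3* was at 0.377 and 17.8 CPM. Astrocyte markers summed to 197 and 335 CPM, nearly all of it *Slc1a3*, which progenitors also express. *Aqp4* was at 0 in Egfr-only nuclei and *Gfap* at 0.998 and 0.905 CPM. *Aldh1l1* was higher in Egfr-only nuclei, at 0.170 and 1.04 CPM from 14 and 15 UMIs, and *Gja1* had 1 and 4 UMIs. Microglial markers summed to 7.11 and 6.89 CPM, and fibroblast or pericyte markers to 0.365 and 0.209 CPM with *Dcn* at 0 in both classes. Endothelial markers summed to 7.79 and 8.42 CPM with *Cldn5* at 0 in both. Of these, *Flt1* at 1.05 and 2.51 CPM and *Kdr* at 0.986 and 2.85 CPM were higher in Egfr-only nuclei. *Pecam1* was lower there, at 5.75 and 2.92 CPM, and *Cdh5* had 1 and 2 UMIs. The part of sex, lineage markers and depth in the differences below was not tested beyond the values given.

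The promoters of 3 genes are shown first because they hold Capicua octamers, the letters through which these outputs are linked to ERK in textbook accounts. In the RefSeq table of promoters, built on GRCm38.p6, 7 of the 10 genes had an entry, with 9 starts between them, and *Dusp4*, *Spry4* and *Etv4* had none. Each 250-base stretch before a start matched 1 place on GRCm39, whose coordinates are given. Searched on both strands were the 8 octamers TGAATGAA, TGAATGAG, TGAATGGA, TGAATGGG, TCAATGAA, TCAATGAG, TCAATGGA and TCAATGGG, none of which is the ETS octamer CCGGAAGT that was searched as well. A Capicua octamer was found before 3 of the 9 starts, those of *Dusp6*, *Spry2* and the inner of the 2 starts of *Etv5*, and in 5.86% of the 32851 promoters of the table. The inner start of *Etv5* had 3 of them, where 0.350% of all promoters had at least 2. The ETS octamer was before none of the 9 starts and in 2.88% of all promoters. Each sequence runs 5′ to 3′ in the sense of its gene and ends at the base before the start, with the octamers in capitals on either strand.
*Dusp6*, chr10:99098843-99099092, plus strand: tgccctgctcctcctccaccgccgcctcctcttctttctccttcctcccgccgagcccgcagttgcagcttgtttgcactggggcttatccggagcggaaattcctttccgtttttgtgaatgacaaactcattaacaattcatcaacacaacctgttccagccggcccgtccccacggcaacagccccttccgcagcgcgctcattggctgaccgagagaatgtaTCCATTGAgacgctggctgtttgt
*Spry2*, chr14:106134254-106134503, minus strand: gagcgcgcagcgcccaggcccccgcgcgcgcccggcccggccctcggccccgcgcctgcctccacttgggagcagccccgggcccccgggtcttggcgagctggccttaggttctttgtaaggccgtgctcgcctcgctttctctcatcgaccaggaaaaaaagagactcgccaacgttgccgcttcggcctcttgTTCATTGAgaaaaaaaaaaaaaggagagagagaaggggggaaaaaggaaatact
*Etv5* inner start, chr16:22257119-22257368, minus strand: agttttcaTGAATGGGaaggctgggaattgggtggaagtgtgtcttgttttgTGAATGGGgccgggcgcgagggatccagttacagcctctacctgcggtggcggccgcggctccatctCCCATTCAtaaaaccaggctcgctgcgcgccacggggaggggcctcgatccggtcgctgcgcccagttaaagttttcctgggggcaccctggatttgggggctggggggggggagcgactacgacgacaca
The octamer of *Dusp6* lay 24 to 17 bases before the start and that of *Spry2* 54 to 47 bases before it, both on the opposite strand. The octamers of *Etv5* began 242, 198 and 131 bases before its inner start. A match of letters is a description of these windows, and binding was not measured.

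All 10 genes passed the minimum of 100 UMIs over both classes, which 13607 genes met. Summed, the 10 genes were at 1174 CPM in Pdgfra-only nuclei (1167 to 1182) and at 1553 CPM in Egfr-only nuclei (1532 to 1573), 1.32 times as high (1.30 to 1.34). In nuclei with both receptors the sum was 1383 CPM, and with neither it was 1242 CPM, so that the receptor-negative nuclei lay closer to the Pdgfra-only class. The ratio of Egfr-only to Pdgfra-only levels was above 1 for 8 genes and below 1 for *Spry4* and *Etv4*, with the interval clear of 1 each time. Among all genes compared, 48.2% had an interval above 1 and 27.2% one below it. Past 2-fold higher were 2 of the 10 genes, *Dusp4* and *Etv5*, where 10.7% of all genes were, and past 2-fold lower was none, where 9.67% of all genes were. The median ratio of the 10 genes was 1.27 (log2 0.34), beside 1.12 (log2 0.16) over all genes, so that the typical gene was itself a little higher in Egfr-only nuclei on this scale.

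**Figure D1:**
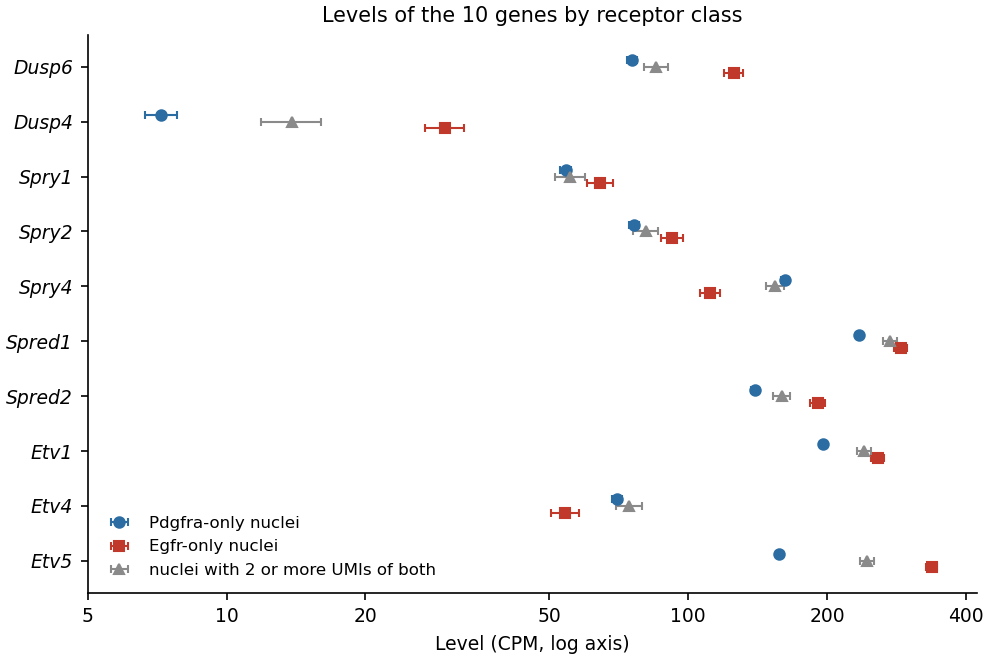
Levels of the 10 genes in CPM on a log axis, for Pdgfra-only nuclei (circles), Egfr-only nuclei (squares) and nuclei with 2 or more UMIs of both receptors (triangles), with 95% exact Poisson intervals for counting error. For 8 genes the Egfr-only level is the higher of the first 2 classes, while *Spry4* (162 against 112 CPM) and *Etv4* (70.2 against 54.2 CPM) lie the other way.

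The phosphatase genes were both higher in Egfr-only nuclei, and *Dusp4* by the larger ratio. *Dusp4* lies on chromosome 8 of GRCm39 from 35274442 to 35287048 and encodes a nuclear phosphatase of ERK. It had 593 UMIs in Pdgfra-only nuclei and 427 in Egfr-only nuclei, from 7.22 CPM (6.65 to 7.82) to 29.7 CPM (27.0 to 32.7), a ratio of 4.12 (3.63 to 4.67) that exceeded those of 96.6% of all genes and was 1.39 in nuclei with no *Xist* UMI. Nuclei with both receptors had 13.8 CPM and nuclei with neither had 16.0 CPM, between the other classes. After each nucleus was thinned to 5000 UMIs to remove the difference in depth, 3.75% of Pdgfra-only nuclei had a *Dusp4* UMI (3.22 to 4.33) against 12.1% of Egfr-only nuclei (10.3 to 14.2). Before thinning the shares were 11.4% and 28.4%. Most nuclei of either class thus showed no *Dusp4* UMI at this depth.

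*Dusp6* lies on chromosome 10 from 99086564 to 99103361 and encodes the cytoplasmic phosphatase specific to ERK, a common readout of the pathway. Its level was 75.7 CPM in Pdgfra-only nuclei (73.8 to 77.6) and 125.5 CPM in Egfr-only nuclei (119.8 to 131.4), a ratio of 1.66 (1.57 to 1.75), which was 0.913 in nuclei with no *Xist* UMI. With both receptors it was 85.2 CPM and with neither 76.1 CPM, so that the Egfr-only level was above those of the other 3 classes. After thinning, 30.3% of Pdgfra-only and 42.1% of Egfr-only nuclei had a *Dusp6* UMI. For every 100 *Dusp6* UMIs there were 9.54 of *Dusp4* in Pdgfra-only and 23.7 in Egfr-only nuclei. The annotation places *Gm56968* on the same strand over *Dusp6* and *Gm56965* and *Gm34921* on the opposite strand, and each has a row of its own in the matrix, with at most 85 UMIs in either class.

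The Sprouty genes did not share a direction. *Spry4*, on chromosome 18, was lower in Egfr-only nuclei, at 111.8 CPM (106.4 to 117.4) against 162 CPM (159 to 165), a ratio of 0.690 (0.655 to 0.727). Nuclei with both receptors had 154 CPM, close to the Pdgfra-only level, and nuclei with neither had 111.4 CPM, close to the Egfr-only level. Shares of thinned nuclei with a *Spry4* UMI ran the same way, 51.4% (49.9 to 52.8) against 42.2% (39.3 to 45.2). The gene *9630014M24Rik*, antisense to *Spry4*, was at 15.7 and 34.4 CPM, higher in Egfr-only nuclei, and whether the counting used strand is not given in the sources used here.

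*Spry1* (chromosome 3, 37693897 to 37698755) and *Spry2* (chromosome 14, 106128766 to 106136446) encode the other Sprouty inhibitors measured. *Spry1* was at 54.3 CPM in Pdgfra-only and 64.6 CPM in Egfr-only nuclei, a ratio of 1.19 (1.11 to 1.28) that came to 0.981 when divided by the median ratio of the genes on its chromosome. *Spry2*, whose promoter window holds a Capicua octamer, was at 76.4 and 92.2 CPM, a ratio of 1.21 (1.14 to 1.28), which was 0.701 in nuclei with no *Xist* UMI. These ratios exceeded those of 56.8% and 58.4% of all genes, so they sat near the middle of the transcriptome. *Spry4* therefore made up 55.4% of the UMIs of the 3 Sprouty genes in Pdgfra-only nuclei and 41.6% in Egfr-only nuclei.

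The SPRED genes were modestly higher in Egfr-only nuclei. *Spred1* (chromosome 2, 116951524 to 117018277), the gene mutated in Legius syndrome, was at 235 CPM in Pdgfra-only and 289 CPM in Egfr-only nuclei, a ratio of 1.23 (1.19 to 1.27). The genes of chromosome 2 had a median ratio of 1.30, and *Spred1* divided by it came to 0.946. *Spred2* (chromosome 11, 19874355 to 19974442), a related inhibitor, was at 139.6 and 191 CPM, a ratio of 1.37 (1.31 to 1.43), and on its chromosome the median was 1.05. After thinning, 50.6% of Pdgfra-only and 60.1% of Egfr-only nuclei had a *Spred2* UMI, while for *Spred1* the shares were 68.5% (67.2 to 69.9) and 71.7% (69.0 to 74.4), whose intervals overlap.

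The 3 PEA3 factors went different ways. *Etv5* (chromosome 16, 22200052 to 22259662) was at 157 CPM in Pdgfra-only nuclei (155 to 160) and at 337 CPM in Egfr-only nuclei (328 to 347), a ratio of 2.14 (2.07 to 2.21) above those of 90.9% of all genes, which was 1.82 in nuclei with no *Xist* UMI. Nuclei with both receptors had 244 CPM and nuclei with neither had 229 CPM, again between the other classes. After thinning, 52.6% of Pdgfra-only nuclei (51.2 to 54.0) and 75.1% of Egfr-only nuclei (72.5 to 77.7) had an *Etv5* UMI. *Etv5* had the second highest ratio of the 10, after *Dusp4*. Whether the Capicua octamers before its inner start bear on this was not tested.

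*Etv1* (chromosome 12, 38828851 to 38920483) was at 196 and 258 CPM, a ratio of 1.31 (1.27 to 1.36), but the genes of chromosome 12 had a median ratio of 1.53, and divided by it *Etv1* came to 0.856. *Etv4* (chromosome 11, 101660568 to 101676197) was lower in Egfr-only nuclei, at 54.2 CPM (50.5 to 58.2) against 70.2 CPM (68.4 to 72.0), a ratio of 0.772 (0.716 to 0.833), which was 1.09 in nuclei with no *Xist* UMI. In nuclei with both receptors *Etv4* was at 74.5 CPM. The summed UMIs of the 3 factors were 424 CPM in Pdgfra-only and 649 CPM in Egfr-only nuclei. Of them *Etv5* made up 37.1% and 52.0%, and *Etv4* 16.6% and 8.36%.

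**Figure D2:**
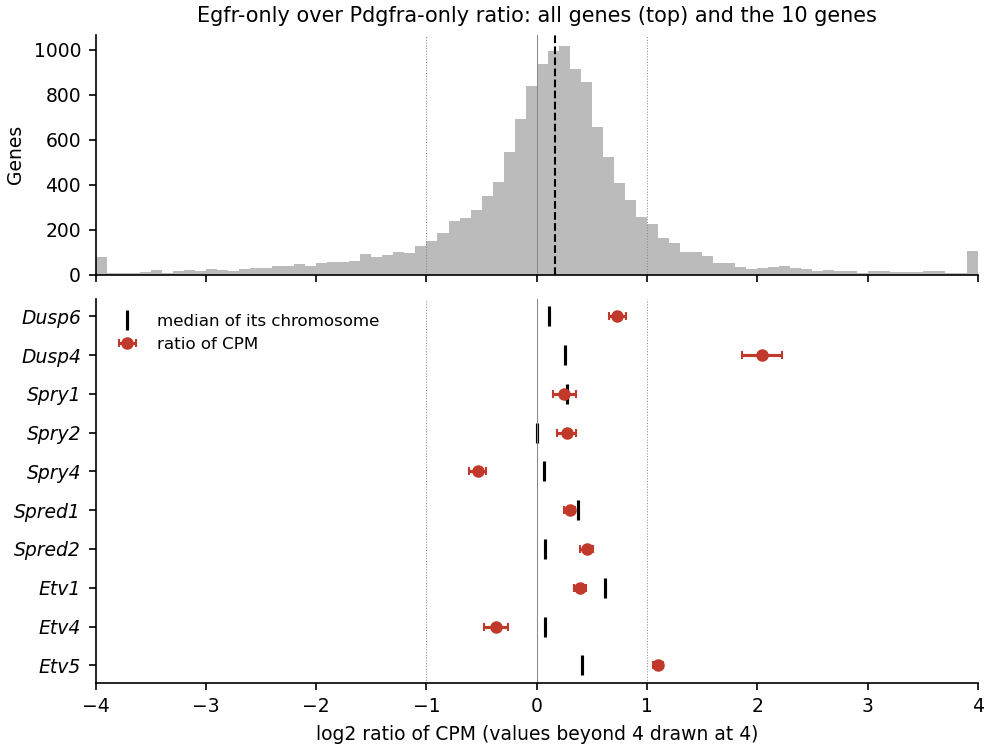
Egfr-only over Pdgfra-only ratios of CPM on a log2 axis. The upper panel counts all 13607 genes compared, with a dashed line at their median of 0.16 and dotted lines at 2-fold, and the lower panel gives the 10 genes with 95% exact intervals for counting error and a bar at the median of the genes on the same chromosome. *Dusp4* and *Etv5* lie past 2-fold, *Spry4* and *Etv4* lie below 0, and *Spry1*, *Spred1* and *Etv1* lie below the median of their chromosomes.

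The amount of receptor transcript gave a finer view. Nuclei were thinned to 5000 UMIs and binned by *Egfr* UMIs among nuclei with 0 *Pdgfra* UMIs, at 0, 1, 2 to 3, and 4 or more, in 2405, 740, 490 and 136 nuclei. Only 35 thinned nuclei still had 2 or more UMIs of both receptors. Of the thinned nuclei, 691 had no UMI of either receptor before thinning. The bin of 2405 nuclei with none is therefore mostly nuclei that lost their receptor UMIs in thinning, and it is not a receptor-negative class. *Etv5* stood at 213, 276, 338 and 377 CPM over these bins, with the last 2 intervals overlapping. *Dusp4* stood at 16.0, 24.6, 27.8 and 22.1 CPM and *Dusp6* at 83.5, 108.1, 122 and 108.8 CPM, so both were higher with 1 or with 2 to 3 *Egfr* UMIs than with none, and in the small bin of 4 or more their intervals overlapped those of every other bin. The share of nuclei with *Xist* went from 30.9% to 69.1%, 78.4% and 82.4% over the same bins.

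Over bins of *Pdgfra* UMIs at 0 *Egfr* UMIs, with 2405, 1946, 2034 and 613 nuclei, *Spry4* stood at 127, 149.9, 169 and 189 CPM, each bin above the last, although the intervals of the last 2 overlapped. Over the *Egfr* bins it was at 127, 116.5, 124 and 125 CPM, with overlapping intervals. *Etv5* stood at 213, 171, 157 and 166 CPM over the *Pdgfra* bins and *Dusp4* at 16.0, 7.71, 8.26 and 8.81 CPM, lower with 1 *Pdgfra* UMI than with none, with overlapping intervals between neighbours from there on. *Etv1* was at 165 CPM in the highest *Pdgfra* bin (151 to 180) and at 223 CPM with no receptor UMI left after thinning (214 to 231). *Xist* was found in 30.9%, 7.35%, 5.75% and 4.73% of the nuclei of these bins, and its part in these levels was not tested.

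**Figure D3:**
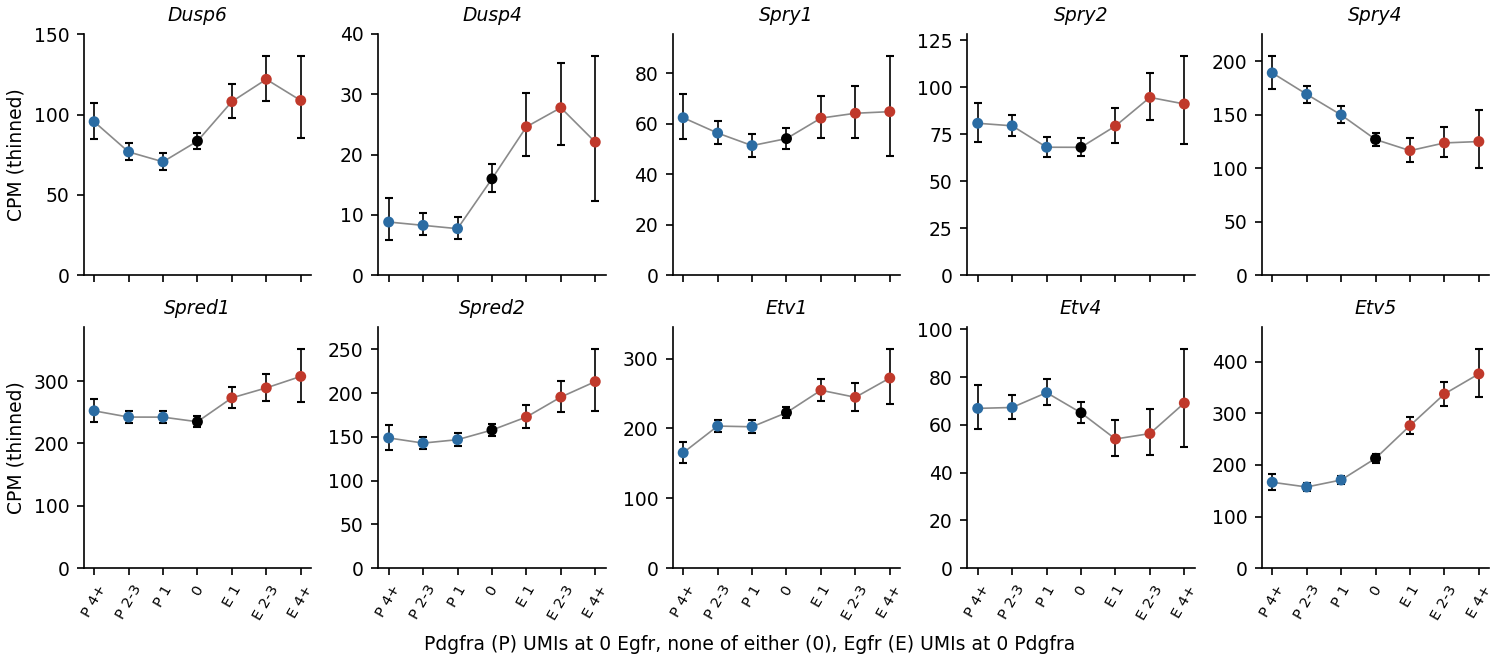
Level of each gene in CPM after thinning every nucleus to 5000 UMIs, over bins of receptor UMIs: *Pdgfra* UMIs from 4 or more down to 1 at 0 *Egfr* (left, blue), no UMI of either left after thinning (black) and *Egfr* UMIs from 1 to 4 or more at 0 *Pdgfra* (right, red). Bars are 95% exact Poisson intervals for counting error. *Etv5* runs from 166 CPM at the left to 377 CPM at the right, and *Spry4* from 189 to 125 CPM.

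Since *Xist* separated the classes, the genes were also compared among nuclei of the same sex-linked transcripts. Among nuclei with *Xist* and no Y-linked UMI, 149 were Pdgfra-only and 882 Egfr-only, with median UMIs of 18681 and 11936. There *Dusp4* was at 9.63 and 32.9 CPM, a ratio of 3.42 (2.34 to 5.18), *Dusp6* had a ratio of 1.47 (1.29 to 1.68), *Etv5* 1.80 (1.65 to 1.97) and *Spry4* 0.689 (0.619 to 0.769). Among nuclei with a Y-linked UMI and no *Xist*, 1121 were Pdgfra-only and 122 Egfr-only. There *Etv5* had a ratio of 1.70 (1.52 to 1.88), from 169 to 286 CPM, but *Dusp4* was at 7.12 and 8.75 CPM, 1.23 (0.621 to 2.22), from only 12 UMIs in the Egfr-only nuclei. *Dusp6* was lower there in Egfr-only nuclei, at 46.7 against 73.7 CPM, 0.634 (0.486 to 0.814), and *Spry2* likewise at 0.705 (0.529 to 0.922).

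*Etv5* was therefore higher, and *Spry4* not higher, in Egfr-only nuclei of both kinds, whereas *Dusp6* was on opposite sides of 1. Nuclei with neither *Xist* nor a Y-linked UMI numbered 3394 Pdgfra-only and 66 Egfr-only. In them *Dusp6* was higher in Egfr-only nuclei, at 106.8 against 75.1 CPM, 1.42 (1.13 to 1.77). *Etv5* had a ratio of 1.85 there (1.61 to 2.12) and *Spry4* 0.831 (0.679 to 1.01). The nuclei with no *Xist* UMI are these together with those with a Y-linked UMI and no *Xist*. In all nuclei with no *Xist* UMI, 4515 Pdgfra-only and 188 Egfr-only, the ratios were 1.82 for *Etv5* (1.68 to 1.98), 0.863 for *Spry4* (0.767 to 0.968), 1.39 for *Dusp4* (0.853 to 2.14), 0.913 for *Dusp6* (0.770 to 1.08), 0.701 for *Spry2* (0.576 to 0.844) and 1.09 for *Etv4* (0.931 to 1.28). None of the output genes was past 2-fold in those nuclei. The share of all genes past 2-fold there is not given here. The output genes with the same direction within nuclei with *Xist*, within nuclei without it and under chromosome scaling were *Dusp4*, *Etv5*, *Spred2* and *Spry4*. Of these *Spry4* was the lower one, and for *Dusp4* the interval without *Xist* held 1.

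**Figure D4:**
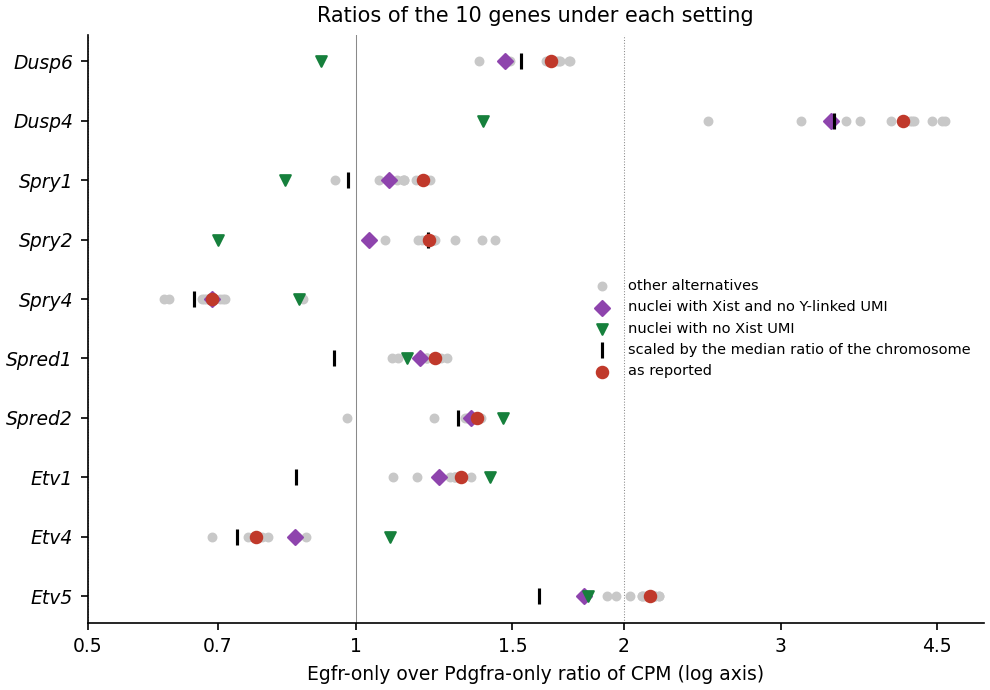
Ratios of the 10 genes on a log axis as reported and under 15 alternatives, with 3 of them marked: nuclei with *Xist* and no Y-linked UMI, nuclei with no *Xist* UMI, and division by the median ratio of the chromosome. *Etv5* lies above 1 and *Spry4* below 1 in every setting shown, while *Dusp6* goes from 1.66 to 0.913 in nuclei with no *Xist* UMI.

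The 10 genes were next set beside other parts of the pathway. For each list below, the background is all genes compared. Of those, 10.7% were past 2-fold higher and 9.67% past 2-fold lower, with a median ratio of 1.12. The lists are short, and no list was tested against these shares. Of 19 genes that carry the signal from receptor to ERK, all of them compared, 1 was past 2-fold higher and none past 2-fold lower, with a median ratio of 1.20. The one was *Shc1*, an adaptor of activated receptors, at 7.44 and 21.4 CPM, a ratio of 2.88 (2.51 to 3.31) that was 1.66 (1.08 to 2.46) without *Xist* nuclei. *Map2k1*, which encodes the kinase MEK1, was at 58.2 and 95.5 CPM, a ratio of 1.64 (1.55 to 1.74).

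Of 17 other negative regulators, 16 were in the matrix and 15 were compared, 3 past 2-fold higher and 1 past 2-fold lower, with a median ratio of 1.12. *Lrig1*, a membrane protein that promotes the degradation of EGFR, was at 8.27 CPM in Pdgfra-only nuclei and at 147 CPM in Egfr-only nuclei, a ratio of 17.8 (16.4 to 19.5). It was 8.85 among *Xist* nuclei and 9.24 without them. *Il17rd*, also known as Sef, an inhibitor of the receptor cascade, had a ratio of 4.85 (4.10 to 5.72) from 3.83 to 18.6 CPM, which was 2.61 (1.59 to 4.06) without *Xist* nuclei, and *Dusp5*, a nuclear ERK phosphatase, had 3.04 (2.31 to 3.97) from 1.97 to 5.99 CPM. *Rasa2*, which inactivates RAS, was lower, at 177.5 against 60.1 CPM, 0.338 (0.316 to 0.363), which was 0.592 (0.332 to 0.985) in the few nuclei with no proliferation UMI. *Cic*, which encodes Capicua, had a ratio of 1.30 (1.17 to 1.44).

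Of 16 other genes that ERK induces, 13 were compared, 2 past 2-fold higher and 4 past 2-fold lower, with a median ratio of 0.852, on the other side of 1 from that of the 10 genes. The immediate early genes in it were split. *Fosb*, a component of AP-1, was at 7.78 and 33.1 CPM, 4.25 (3.77 to 4.79), which was 1.89 (1.27 to 2.71) without *Xist* nuclei. *Hbegf*, a ligand of EGFR, was at 22.8 and 51.1 CPM, 2.24 (2.05 to 2.44), which was 1.96 (1.56 to 2.49) among nuclei with *Xist* and no Y-linked UMI and 1.25 (0.949 to 1.62) without *Xist* nuclei. The zinc finger factor *Egr1* was at 343 CPM in Pdgfra-only and 123 CPM in Egfr-only nuclei, 0.358 (0.341 to 0.375), and its relative *Egr2* at 7.51 and 2.37 CPM, 0.315 (0.216 to 0.445), which was 0.631 (0.301 to 1.17) without *Xist* nuclei. *Phlda1* was at 322 and 105.5 CPM, 0.328 (0.311 to 0.345), and *Ier2* at 55.8 and 27.2 CPM, 0.487 (0.438 to 0.540), which was 0.721 (0.575 to 0.892) without *Xist* nuclei and under 0.5 in 10 of 14 alternatives. Without *Xist* nuclei *Egr1* was at 0.441 (0.394 to 0.492) and *Phlda1* at 0.456 (0.407 to 0.510). *Phlda1* was at 0.552 (0.491 to 0.619) in nuclei with at most 5% mitochondrial UMIs and at 0.539 (0.333 to 0.831) in those with no proliferation UMI, no longer past 2-fold. Over the *Pdgfra* bins *Egr1* stood at 221, 307, 350 and 417 CPM and *Phlda1* at 208, 274.5, 320 and 359 CPM, each bin above the last with no overlap of intervals.

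Of 12 other ETS factors, 11 were compared, 1 past 2-fold higher and 1 past 2-fold lower, with a median ratio of 1.20. *Elk3*, a factor of the ternary complex, was at 26.9 and 85.4 CPM, 3.18 (2.96 to 3.41), which was 1.67 (1.35 to 2.06) without *Xist* nuclei. *Erg*, known from endothelium, was at 6.99 and 0.975 CPM, 0.140 (0.0758 to 0.236), from 14 UMIs in Egfr-only nuclei, and without *Xist* nuclei it was at 0.591 (0.269 to 1.13). Of 10 proliferation genes none was past 2-fold. They summed to 2522 CPM in Pdgfra-only and 2470 CPM in Egfr-only nuclei, and 2.19% and 1.69% of the nuclei had no UMI of any of them.

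**Figure D5:**
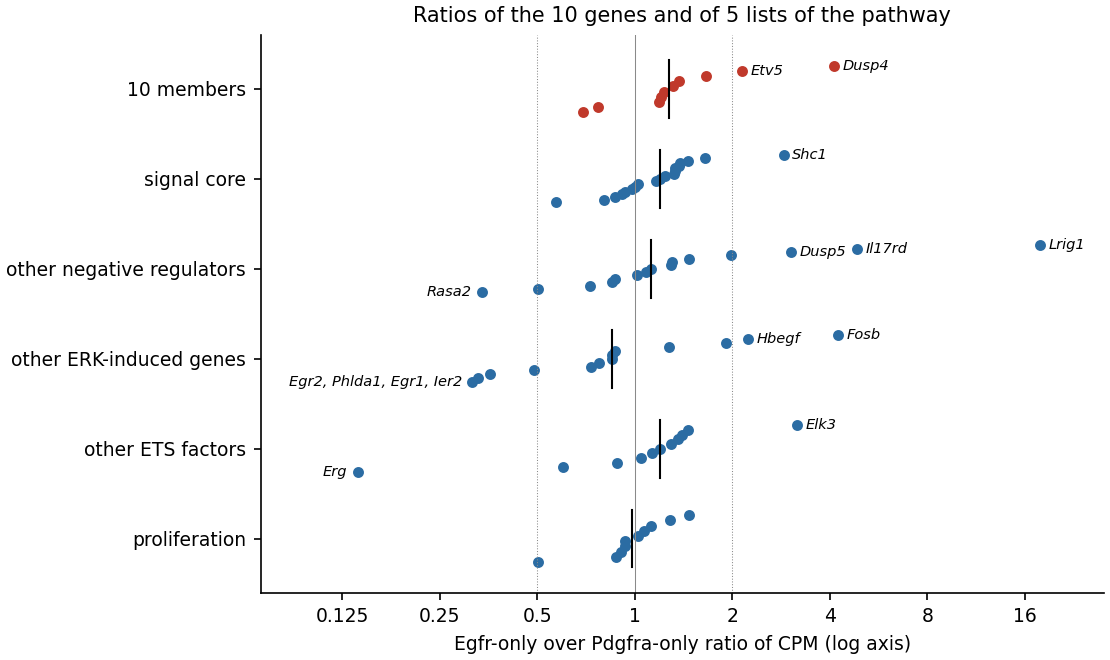
Egfr-only over Pdgfra-only ratios of CPM on a log axis for the 10 genes and for the compared genes of 5 lists of the pathway, with a bar at the median of each list and dotted lines at 2-fold. Genes past 2-fold are named, from *Erg* at 0.140 to *Lrig1* at 17.8.

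Between single nuclei the correlations among the 10 genes were close to none. Pairs of other genes are not given here, so the count of pairs has no background and shows no shared movement. Over 8760 nuclei thinned to 5000 UMIs, 35 of the 45 pairs had a Pearson correlation above 0 and none was above 0.1. The highest was 0.071, for *Spry1* and *Spry4*, the median was 0.019 and the lowest was -0.026. With most genes at 0 or 1 UMI per nucleus, correlations of this size describe sparse counts of 1 library, whose nuclei differ in class and sex-linked transcripts. Outside the 10, the genes whose UMIs correlated most with the sum of the 10 were *Vav3* (0.207), *Igfbp2* (0.206), *Npas3* (0.172), *Egfr* (0.171) and *Igfbp4* (0.170), and *Pdgfra* was at -0.055. For *Etv5* alone they were *Igfbp2* (0.233), *Vav3* (0.215) and *Xist* (0.205), and for *Spry4* alone *Xylt1* (0.129), *Fbn2* (0.127) and *Egr1* (0.127). *Spry4* correlated with *Pdgfra* at 0.113 and with *Egfr* at -0.038, the reverse order of *Etv5*, at -0.130 and 0.198. Both receptors set the classes, so their correlations here are not independent of the class ratios above.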

How the data were processed

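Nuclei of cultured BB-p53n OPCs were profiled in 1 library. The authors aligned reads and called barcodes with Cell Ranger 8.0.1 on mm39 and deposited counts, which are whole UMIs for each gene in each barcode, neither normalized nor yet cut by detected genes. The annotation version behind the counts is not given in the sources used here. Positions came from GENCODE vM39 on GRCm39, where 33185 of 33696 genes matched by Ensembl identifier. Promoter sequences came from RefSeq. Of the annotated genes that overlap a member, those over *Dusp6* and *9630014M24Rik* over *Spry4* have rows in the matrix.

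From the deposited counts, barcodes with 2000 to 8000 genes were kept, UMIs were summed per receptor class, and CPM was computed with exact Poisson intervals, ratios with exact conditional binomial intervals and shares with Clopper-Pearson intervals (scipy 1.17.1). The library had 154375410 UMIs over 10047 barcodes, of which 0 were duplicated. The Pdgfra-only class had 82149081 UMIs and the Egfr-only class 14366050, so intervals are wider in the latter. With 1 library there is no replicate, no p-value and no gene called changed. Past 2-fold means a ratio of at least 2 or at most 0.5 among genes with at least 100 UMIs. Thinning drew 5000 UMIs per nucleus without replacement, and 157 shallower nuclei were left out. No class of nuclei in the library analysed here lacked these genes, and the brain samples were not searched for such a cell type. Shares of nuclei therefore have no background from free RNA other than the barcodes with few genes. Scrublet in scanpy called 1566 nuclei (17.6%) as doublets, and none was removed outside 2 alternatives. The ratio script was tested on simulated counts.

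The members, classes and lists were chosen with earlier results of these data known. All 10 members are described, with every gene of the pathway lists past 2-fold and, by correlation over thinned nuclei, the 5 genes most like the sum of the members and the 3 most like *Etv5* and *Spry4*. *Map2k1*, *Cic* and the antisense gene of *Spry4* were named after their values were seen. Alternatives changed the UMI threshold, gene range, mitochondrial share, depth, weighting, scaling, sex-linked and proliferation transcripts, and doublets. Some values are not reported here.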

Additional observations from a re-analysis of the deposited data

Results flagged for a closer look

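Barcodes outside the range of detected genes are in no comparison of the report, and they held transcripts of the 10 genes as well. In the 918 barcodes with under 2000 genes the 10 genes summed to 1082 CPM, below each receptor class, and a UMI of at least 1 of them was found in 75.6% of these barcodes, whose median was 1717 UMIs. In the 212 barcodes with over 8000 genes the sum was 1253 CPM, between the Pdgfra-only and the Egfr-only level. Mitochondrial genes took 19.5% of the UMIs below the range and 6.34% above it. No control library without these transcripts was measured, and the source of these UMIs was not tested.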

How the results depend on the processing

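The 15 alternatives, of which the removal of *Xist* nuclei and of nuclei called by Scrublet were chosen after seeing the data, left *Etv5* above 1 (1.61 to 2.19), *Dusp4* above 1 (1.39 to 4.59) and *Spry4* below 1 (0.609 to 0.872). The median log2 ratio of the 10 genes, 0.34, became 0.42 with at most 5% mitochondrial UMIs, 0.18 when scaled by the median of all genes, 0.12 when scaled by that of the chromosome, 0.28 in nuclei with *Xist* and no Y-linked UMI, 0.15 in nuclei with no proliferation UMI (103 and 19 nuclei) and 0.16 in nuclei with no *Xist* UMI. The count past 2-fold higher, 2, became 1 with at most 5% mitochondrial UMIs, under both scalings and in nuclei with *Xist* and no Y-linked UMI, and 0 in nuclei with no *Xist* UMI. The count past 2-fold lower was 0 throughout. The cause of these shifts was not tested, apart from the scalings, which divide every ratio by a value above 1. Directions turned for *Dusp6*, *Spry2* and *Etv4* without *Xist* nuclei, for *Spred1* and *Etv1* under chromosome scaling, for *Spred2* without proliferation UMIs (0.979), and for *Spry1* under each of these 3. Named genes of the lists under 100 UMIs in an alternative have no value there. No paired analysis was possible because the comparison lies within 1 library. Few nuclei limit the sub-groups, with 4 *Dusp4* UMIs in Egfr-only nuclei with no proliferation UMI and 12 in those with a Y-linked UMI and no *Xist*.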

Other observations

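Some genes outside the rule for naming also stood apart, *Epha2* and *Fli1* from few counts, and all were chosen after their values were seen. *Epha2*, a receptor kinase, had 17 UMIs in Pdgfra-only and 28 in Egfr-only nuclei, 0.207 and 1.95 CPM, a ratio of 9.42 (4.98 to 18.3). *Fli1*, an ETS factor, had 15 and 19 UMIs, a ratio of 7.24 (3.49 to 15.3). *Erf*, the ETS repressor that ERK exports from the nucleus, lay just under 2-fold at 11.9 and 23.5 CPM, 1.98 (1.74 to 2.24), and *Junb* at 7.84 and 15.0 CPM, 1.92 (1.64 to 2.24). *Gab1*, a docking protein of receptor kinases, was the lowest of the signal carriers, at 230.4 and 131.9 CPM, 0.573 (0.546 to 0.600).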
